A study of Mus musculus with 6 samples.

Results

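The genes described here encode the proteins of the cytosolic ribosome, the particle that translates every nuclear mRNA. They were chosen by symbol from the protein-coding genes of the GENCODE M21 annotation: Rpl or Rps followed by a number and at most a short suffix, together with Rpsa, Rplp0, Rplp1 and Rplp2, and leaving out the Rps6k kinases. The symbol rule itself used no measured value, but it was set with earlier results of these data known. It gave 77 genes of the 55421 in the table, 21976 of which are annotated as protein-coding. Of the 77, 46 encode large subunit proteins and 31 encode small subunit proteins, and they lie on 19 chromosomes, 14 of them on chromosome 7 and 4 on the X chromosome.

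RNA was sequenced from primary macrophages of the mouse that had been differentiated in culture from bone marrow. Tmem175, a lysosomal cation channel, was the gene under study. There were 3 knockout libraries, titled Tmem175flox/flox Lyz2-Cre+/- and given the genotype Tmem175-/- in the labels, and 3 libraries from wild type (WT) cells. No treatment is named for either group, and no library with floxed alleles alone or Cre alone was analysed here, so the effects of the deletion and of Cre cannot be told apart. Cre is driven from Lyz2, a gene of myeloid cells, and the age and number of the animals are not given in the labels. Replicates are described as wells of a culture plate and no animal is assigned to a well, so p-values here reflect only well-to-well spread, which may be technical. In RNA from whole wells, fewer cells of a type and less RNA per cell cannot be told apart.

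Each ribosome holds a single copy of most of its proteins, so cells need the ribosomal proteins in nearly equal numbers. Growing mammalian cells hold large amounts of their mRNAs and adjust how far these are translated. The mRNAs typically begin with a C followed by a run of pyrimidines, called the 5′ terminal oligopyrimidine (TOP) motif, through which the growth-sensing kinase mTORC1, itself activated on lysosomes, controls their translation. Mammalian genomes also carry many processed pseudogenes copied from these mRNAs, and a few expressed paralogues of individual members.

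Sequence at the annotated start sites is shown first because it is a feature that the choice by symbol did not use. The RefSeq table of promoters on GRCm38.p6 held 57 of the 77 genes. A run was counted where a C within 5 bases of the annotated start opened at least 5 consecutive C or T on the strand of the gene. Such a run was present in 27 of 57 ribosomal protein genes (47.4%), in 21.2% of the 27025 genes in the table and in 6 of 12 other known TOP genes. The 30 bases printed hold 10 before the annotated start and 20 from it on, with the run in capitals; Rplp0 and Rpl36a have no run that opens within 5 bases of the annotated start, which says only that these letters are not there. Rps6 lies at chr4:86857348-86857377 on the minus strand, Rps27 at chr3:90213629-90213658 on the minus strand, and Rpl13a at chr7:45128726-45128755 on the minus strand. Rpl27a lies at chr7:109519185-109519214 on the plus strand, Rplp0 at chr5:115559457-115559486 on the plus strand, and Rpl36a at chrX:134585644-134585673 on the plus strand.
Rps6: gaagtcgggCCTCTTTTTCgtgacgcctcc
Rps27: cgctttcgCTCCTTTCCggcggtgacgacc
Rpl13a: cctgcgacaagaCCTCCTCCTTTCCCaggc
Rpl27a: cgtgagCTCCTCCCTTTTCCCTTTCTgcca
Rplp0: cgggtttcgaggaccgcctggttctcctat
Rpl36a: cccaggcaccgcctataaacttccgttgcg

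The libraries held 24179548 to 31542741 counts. Tmem175 stood at 14.3, 13.2 and 12.1 CPM in the knockout libraries and at 32.8, 33.4 and 33.2 CPM in the WT libraries, where CPM is the count scaled to library totals corrected by TMM (trimmed mean of M-values). Its log2 fold change was -1.33 (SE 0.07; edgeR quasi-likelihood test, adjusted p = 6.01e-05). Lyz2, which drives Cre, was also lower in knockout, by -0.89 (SE 0.08; adjusted p = 0.00415, edgeR). The 15 macrophage markers passed the expression filter. Together they took 4.57% to 4.92% of counts in knockout and 6.36% to 7.06% in WT, a sum that includes Lyz2. Lyz2 alone took 2.31% to 2.64% in knockout and 4.14% to 4.84% in WT. It was the only one of the 15 at an adjusted edgeR p under 0.05. Of the 15, 7 had log2 fold changes above 0 and 8 below, with a median of -0.001. The 14 neutrophil markers took 0.0847% to 0.0899% in knockout and 0.0491% to 0.0696% in WT. At an unadjusted edgeR p under 0.05, 6 of 14 were higher and 1 lower, where 5.44% of all genes tested passed. At an adjusted p under 0.05, edgeR called 0 of the 14, the DESeq2 Wald test 4 and limma-voom 1. Among all 13588 genes tested, these tests called 14, 40 and 15. The marker lists of erythroid, lymphoid, mast cell and stromal cells took at most 0.0205% each. At the same unadjusted level, 4 of 5 erythroid and megakaryocyte markers tested, 4 of 6 lymphoid markers and 5 of 7 mast cell and basophil markers were lower in knockout, with list medians of -0.52, -0.70 and -0.96 on the log2 scale, and 0 of 7 stromal markers. The part of these differences in the ribosomal protein values was not tested.

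The ribosomal protein genes took between 3.61% and 3.91% of all counts, and their share did not separate the genotypes. The share was 3.81%, 3.85% and 3.91% in the knockout libraries and 3.71%, 3.61% and 3.84% in the WT libraries. The groups overlap, because the third WT library lies above the first knockout library. The means were 3.86% ± 0.0490 and 3.72% ± 0.117 (SD, n = 3), a difference of 0.136 percentage points (two-sided exact permutation test, p = 0.2; the smallest p that 3 against 3 can give is 0.1). Counting error was small beside this spread, since the 95% Wilson intervals reached at most 0.00754 percentage points to either side; they cover counting error only. The difference depended on the denominator. Lyz2 alone held 2.31% to 2.64% of counts in knockout and 4.14% to 4.84% in WT. As a share of protein-coding counts without Lyz2 and the mitochondrially encoded genes, ribosomal protein genes held 4.0%, 4.04% and 4.11% in knockout and 3.99%, 3.87% and 4.14% in WT, a difference of 0.0556 percentage points (exact permutation test, p = 0.6). Without the second WT library, the lowest, the difference in the share of all counts was 0.0806 percentage points.

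The balance between the subunits varied little between libraries. Summed counts of large subunit genes over those of small subunit genes gave ratios of 1.53, 1.55 and 1.55 in knockout and 1.52, 1.54 and 1.54 in WT. The groups overlap, and the difference in means was 0.00738 (two-sided exact permutation test, p = 0.5).

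**Figure D1:**
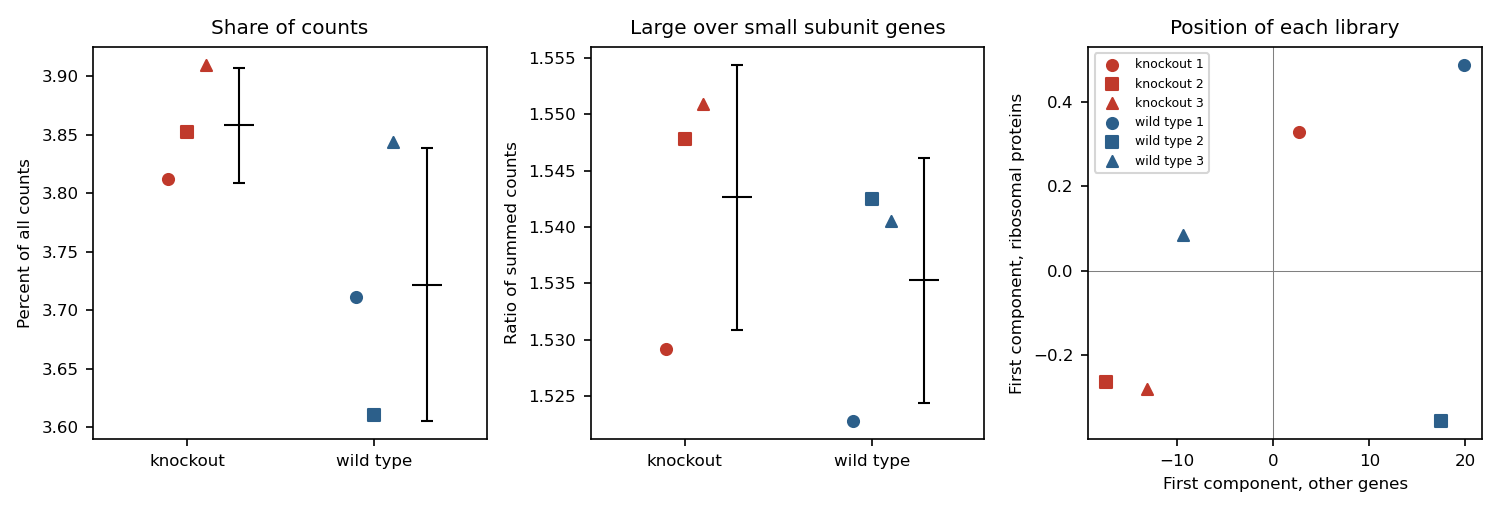
Left, share of all counts (percent) held by the 77 ribosomal protein genes in each library; middle, ratio of summed counts of large over small subunit genes; right, position of each library on the first component of the ribosomal protein genes against that of all other genes tested (log2 units). Points are libraries, and black lines give the mean and SD of 3 libraries; the vertical axes of the left and middle plots do not start at 0. The groups overlap in both measures, and the lowest share, 3.61%, belongs to the second WT library.

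All 77 genes passed the expression filter, and 74 of them stood within about an order of magnitude of each other. Those 74 had at least 100 CPM, and the highest mean level, 1458 CPM for Rplp0, was 10.8 times the lowest of them. Per kilobase of mRNA, the median over all 77 was 591 CPM per kb, with quartiles of 425 and 780. The medians per subunit were 580 CPM per kb for large subunit genes and 602 CPM per kb for small subunit genes. The 8 genes with the most counts held 21.4% of all counts of ribosomal protein genes.

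Per length, the 8 highest genes came from both subunits. Rpl10, a late-joining large subunit protein near the catalytic centre, was highest at 1792 CPM per kb. Its level was 1489, 1361 and 1456 CPM in knockout and 1416, 1331 and 1536 CPM in WT, so the groups overlap. The acidic stalk protein Rplp1, which with its partner Rplp2 helps recruit translation factors, followed at 1653 CPM per kb. Rpl41, which encodes a very short basic peptide of the large subunit, reached 1260 CPM per kb. The small subunit genes Rps12, Rps9 and Rps14 stood at 1244, 1197 and 1024 CPM per kb. Rplp0, the base of the stalk, stood at 1074 CPM per kb, and Rpl7a, a large subunit protein, at 905 CPM per kb. The order among neighbours depends on the transcript model chosen for the length, and none of these neighbours was tested against another.

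**Figure D2:**
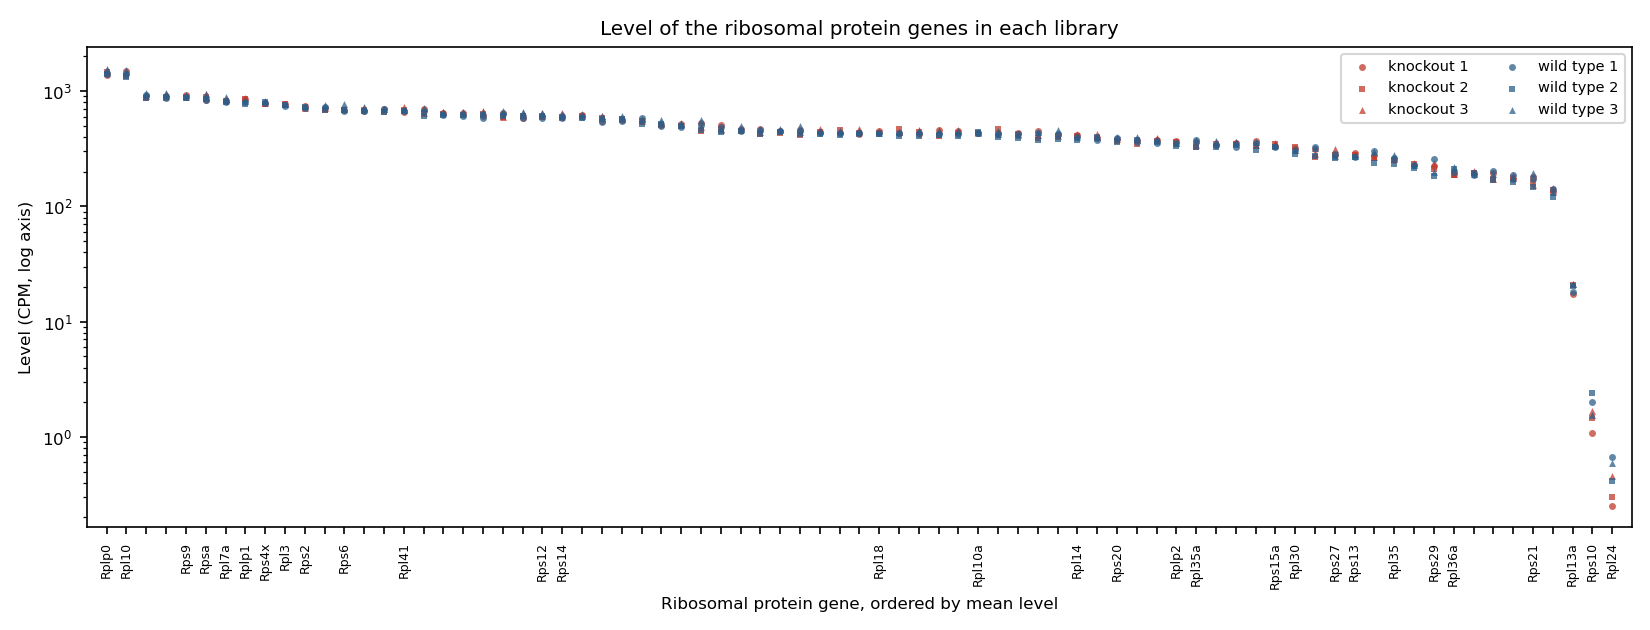
Level of each of the 77 ribosomal protein genes in each library (CPM, log axis), ordered by the mean over 6 libraries, with names only for genes chosen by the naming rule; red points are knockout libraries and blue points WT libraries. The 6 points of most genes lie on top of each other, and Rpl13a, Rps10 and Rpl24 lie apart at the low end.

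Rpl24, Rps10 and Rpl13a, which encode core components of the ribosome, were listed at far lower levels than the other 74, in every library of both genotypes. Rpl24, a large subunit protein, had 8, 9 and 12 counts in knockout and 16, 10 and 15 in WT, or 0.661 CPM per kb. It passed the expression filter only through the WT libraries. Rps10, a small subunit protein, had 34, 44 and 44 counts in knockout and 48, 59 and 39 in WT, or 1.92 CPM per kb. Rpl13a, a large subunit protein also known for silencing inflammatory mRNAs in myeloid cells, had 433 to 630 counts, or 19.0 CPM per kb. Together they held 0.0580% of the counts of ribosomal protein genes. They are also the only members with more than 20% of their mRNA bases inside exons that GENCODE M21 gives to another gene on the same strand. The overlap was 71.5% of Rpl24 with Gm28037, 53.6% of Rps10 with RPS10-NUDT3 and 59.3% of Rpl13a with Gm45713, and each of these 3 partners had 0 counts in all 6 libraries. The next highest overlap on the same strand was 10.7%, in Rpl19. Overlap with genes on the opposite strand was 68.3% in Rpl35, 55.4% in Rpl23a, 46.6% in Rpl5 and 34.7% in Rpl30. Their mean levels were 257, 348, 610 and 310 CPM. Whether reads in the exons that Rpl24, Rps10 and Rpl13a share were left out of the counts was not tested. The values for Rpl24, Rps10 and Rpl13a therefore cannot be read as levels of the mRNA.

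Genes outside the choice by symbol were read in the same way. Fau, which encodes a small subunit protein fused to a ubiquitin-like protein, stood at 553 CPM, or 1088 CPM per kb. The paralogue Rpl36al, with 63.1% of its mRNA inside exons of Gm49383, stood at 0.815 CPM.

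**Figure D3:**
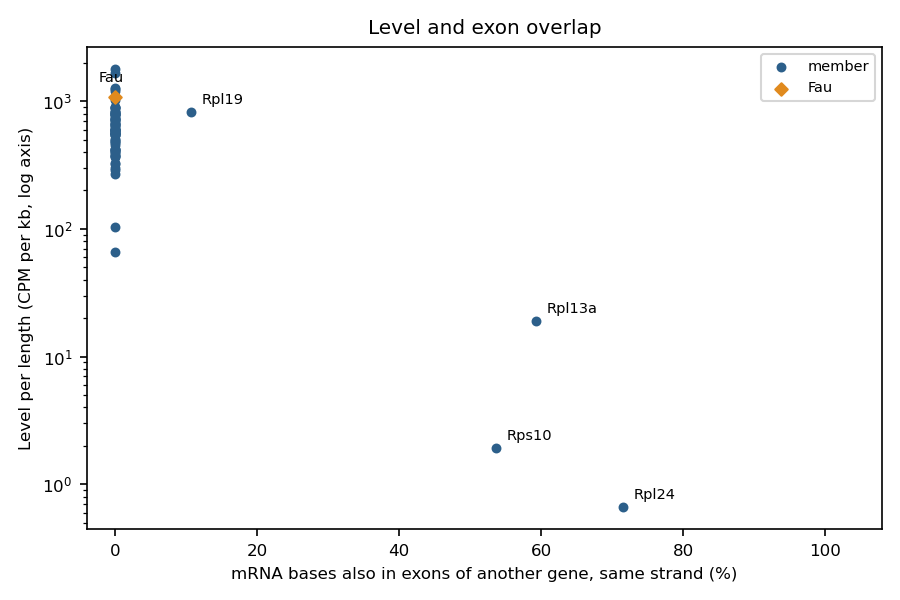
Level per length (CPM per kb, log axis) of the 77 ribosomal protein genes and of Fau against the percent of mRNA bases that lie in exons of another gene on the same strand. Rpl24, Rps10 and Rpl13a, the only members above 20% overlap, are the lowest of the 77.

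The next lowest levels per length were those of Rps15a at 66.1, Rps20 at 103 and Rpl35 at 271 CPM per kb. Rps15a and Rps20, both small subunit proteins, had 339 and 382 CPM, and their values per length rest on transcript models of 5130 and 3706 bases. Rpl35, at the exit of the peptide tunnel in the large subunit, had 257 CPM over 946 bases. In CPM, without the division by length, Rps15a and Rps20 lie among the other members.

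Replicate spread was small for most of the 74 genes above 100 CPM. Their coefficient of variation (CV) over all 6 libraries had a median of 4.25%, against 4.06% for the other 1903 genes above that level. The most even was Rpl10a, a large subunit protein, with 435, 431 and 440 CPM in knockout and 430, 439 and 431 CPM in WT, a CV of 1.04%. Rps2, near the mRNA entry channel, had a CV of 1.78%, Rpl3, one of the largest ribosomal proteins, 1.95%, and Rpl18, a large subunit protein, 1.98%. These 4 genes had the lowest spread of the 77. At the other end, Rpl24 and Rps10 had CVs of 36.3% and 27.4% at few counts. Rps29, a small zinc-binding protein of the small subunit, reached 226, 209 and 240 CPM in knockout and 260, 182 and 198 CPM in WT, a CV of 13.0%. Rps21, also of the small subunit, reached 180, 159 and 153 CPM in knockout and 171, 149 and 193 CPM in WT, a CV of 10.2%. In both, the WT libraries span the whole range of the knockout libraries.

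The members shared part of their variation between libraries. Over the 75 genes with at least 10 CPM, the first principal component held 46.9% of the variation. The libraries stood on it at 0.328, -0.264 and -0.279 in knockout and at 0.487, -0.356 and 0.0847 in WT, so it did not separate the genotypes. Rps29, Rps28, Rpl37 and Rps21 were among the members with the largest positive weights, and Rpl13a had the largest negative one; Rps28 and Rpl37 were named after their values were seen. Rps28, a small subunit protein, shows the pattern, with 193, 174 and 173 CPM in knockout and 203, 169 and 192 CPM in WT. The first library was the highest in each genotype, and the third WT library lay close to the first knockout library. A second feature was a general offset of single libraries. The second WT library held the lowest value of 42 of the 75 genes and the third WT library the highest value of 36, although both belong to one group. Across the 74 genes above 100 CPM, the CV had a Spearman rho of -0.25 with mRNA length and of -0.34 with level in CPM, values that describe these 6 libraries.

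Knockout and WT libraries did not differ in any ribosomal protein gene at an adjusted p under 0.05. edgeR's quasi-likelihood test called 0 of 77, where it called 14 of all 13588 genes tested (0.103%), 2 higher in knockout (0.0147%) and 12 lower (0.0883%). At an unadjusted p under 0.05 there was 1 gene higher and 1 lower, where 5.44% of all genes tested passed. Scaled by library totals alone these counts were 6 and 1 (7.44% of all genes tested), and without the second WT library they were 0 and 3. The DESeq2 Wald test called 0 of 77 with 0 higher and 1 lower at an unadjusted p under 0.05, and limma-voom called 0 with 1 in each direction. The median log2 fold change of the 77 was 0.01, and 44 of 77 lay above 0, against 49.6% of all genes tested. Scaled by library totals alone, 65 of 77 lay above 0 with a median of 0.05, and the median of all genes tested also rose to 0.04. Large subunit genes had a median log2 fold change of 0.01 with 29 of 46 above 0, and small subunit genes -0.01 with 15 of 31 above 0. The count above 0 also turned on single libraries of both genotypes. It was 65 of 77 without the third WT library, 34 without the second WT library, 33 without the third knockout library and 41 to 52 without any 1 of the others.

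The differences were also narrowly bounded. Among the 74 genes above 100 CPM, log2 fold changes ran from -0.14 to 0.10, and 72 of 74 (97.3%) lay within 0.1 of 0. Of the other 1903 genes above 100 CPM, 90.9% did, but members and other genes were not matched for level beyond that floor. The SD of the log2 fold changes was 0.05 for the 74 members, against 0.09 for those other genes. The 95% interval of the fold change lay within 1.2-fold in either direction for 71 of 74. Rps21 and Rps29 were among the exceptions, the latter with an interval of -0.18 to 0.34 on the log2 scale.

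**Figure D4:**
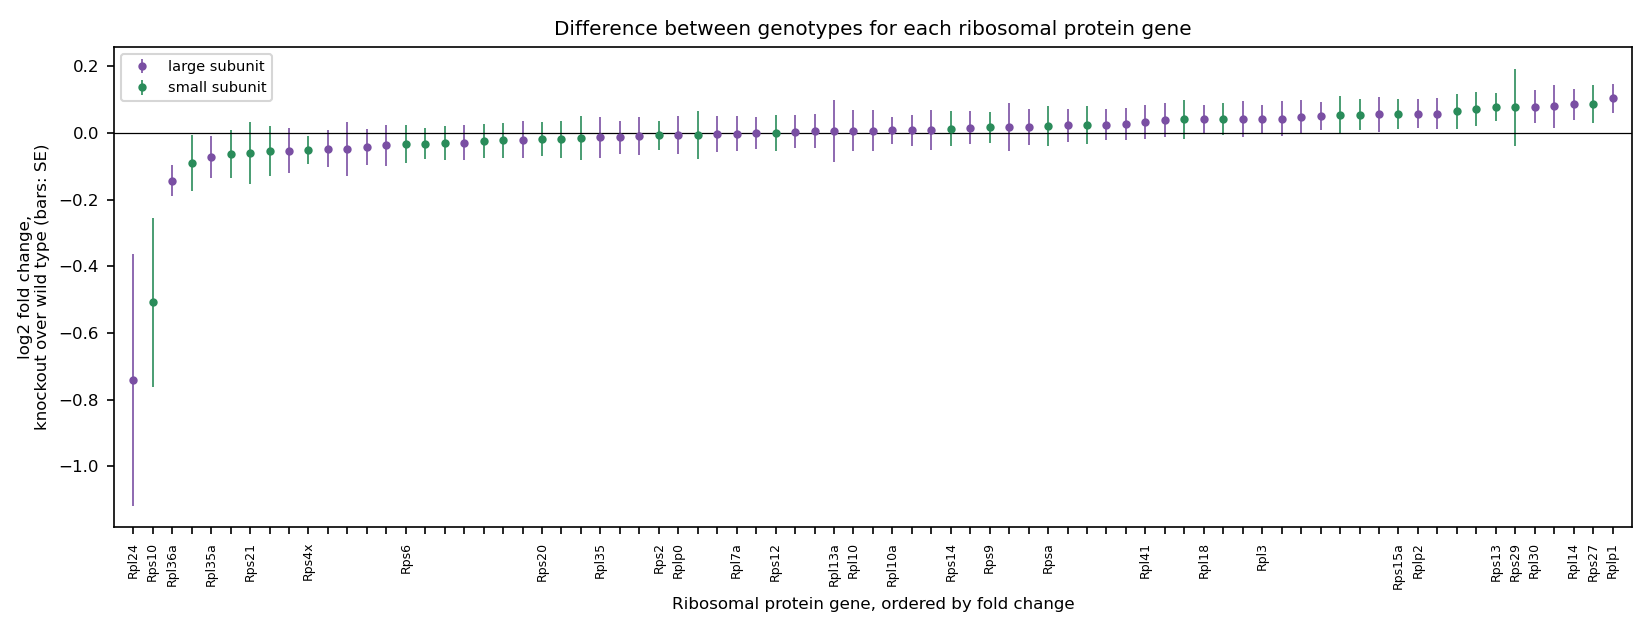
Log2 fold change of knockout over WT for each of the 77 ribosomal protein genes, in order of size, with names only for genes chosen by the naming rule; points are estimates of edgeR's quasi-likelihood fit, bars are standard errors, and colours mark the subunit. All but Rpl24, Rps10, Rpl36a and Rplp1 lie within 0.1 of 0, and neither subunit gathers at one end.

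Rplp1 and Rpl36a had the smallest p-values in each direction. The stalk protein gene Rplp1 stood at 851, 846 and 866 CPM in knockout and at 803, 768 and 814 CPM in WT. Every knockout library lay above every WT library, with a log2 fold change of 0.10 (SE 0.04; edgeR adjusted p = 0.908). The other stalk genes gave 0.06 for Rplp2 and -0.01 for Rplp0 (SE 0.04 and 0.06). Rpl36a, an X-linked gene of the large subunit, stood at 192, 186 and 189 CPM in knockout and at 200, 209 and 218 CPM in WT. Every knockout library lay below every WT library, with a log2 fold change of -0.14 (SE 0.05; edgeR adjusted p = 0.814). Of the windows of 100 bases in the mRNA of Rpl36a, 83.6% also occur in transcripts of other genes, so part of its reads may not be told apart from those of its copies.

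The other members with small p-values in their direction had fold changes of similar size. Higher in knockout by estimate were Rps27 at 0.09, Rpl14 at 0.09, Rpl30 at 0.08 and Rps13 at 0.08 on the log2 scale (SE 0.04 to 0.06; edgeR adjusted p = 0.947 to 0.966). In that order, 98.4%, 36.9%, 32.5% and 77.6% of their windows of 100 bases also occur in transcripts of genes elsewhere in the genome. Part of their reads may therefore not be told apart from those of copies. Rps4x, an X-linked small subunit gene, and Rpl35a, a large subunit gene, had estimates of -0.05 and -0.07. At few counts, Rps10 and Rpl24 had estimates of -0.51 (SE 0.25) and -0.74 (SE 0.38), with edgeR adjusted p = 0.939 for both. Rps6, the small subunit protein phosphorylated by S6 kinases, stood at 689, 683 and 706 CPM in knockout and at 677, 680 and 767 CPM in WT. Rpsa, known also as a laminin receptor precursor, stood at 836, 894 and 935 CPM in knockout and at 831, 856 and 937 CPM in WT. For both, the knockout values fall inside the WT range. In 9 of 77 genes the groups did not overlap, 7 of them higher in knockout, against 10.8% of all genes tested. These 9 were Rplp1, Rpl14, Rps13, Rplp2, Rpl22, Rpl3, Rpl18, Rpl36a and Rps4x.

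Every paralogue with counts lay below its partner per length, and no ratio between them passed a test between genotypes. Of the 10 paralogues listed, 9 were in the table, and 6 ratios could be computed with at least 10 counts of the paralogue in every library. Rps27l, a paralogue of Rps27 known as a target of p53, stood at 60, 61.5 and 68.6 CPM in knockout and 59.0, 62.3 and 62.9 CPM in WT. Its counts were 21.8% ± 0.369 of those of Rps27 in knockout and 22.5% ± 1.6 in WT (SD, n = 3; two-sided exact permutation test, p = 0.5). Rps27rt, an intronless copy, stood at 2.86 to 3.27 CPM in knockout and 2.79 to 2.92 CPM in WT. The coding sequences of this family are shown because they decide which reads can be assigned to a gene. Over 252 coding bases without the stop codon, Rps27rt has 0 differences from Rps27, while Rps27l differs at 60 positions (76.2% identity), which are in capitals. Reads that lie wholly within the coding sequence therefore cannot tell Rps27 from Rps27rt. Rps27 lies at chr3:90212522-90213651 on the minus strand and Rps27l at chr9:66946086-66949516 on the plus strand, in the coordinates of GENCODE M21.
Rps27: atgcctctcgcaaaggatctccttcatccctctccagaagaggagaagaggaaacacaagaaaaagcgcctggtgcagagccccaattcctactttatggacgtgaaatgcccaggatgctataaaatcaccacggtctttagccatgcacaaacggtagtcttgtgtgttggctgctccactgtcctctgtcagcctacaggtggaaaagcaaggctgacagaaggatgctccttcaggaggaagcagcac
Rps27l: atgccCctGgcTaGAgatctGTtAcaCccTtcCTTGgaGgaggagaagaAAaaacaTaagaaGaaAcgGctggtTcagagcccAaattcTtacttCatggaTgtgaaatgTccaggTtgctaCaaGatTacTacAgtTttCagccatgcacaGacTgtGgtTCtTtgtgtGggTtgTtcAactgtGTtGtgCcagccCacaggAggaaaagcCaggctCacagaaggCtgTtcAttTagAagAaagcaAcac

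Rpl22l1 was the paralogue with the smallest p-value. Rpl22 and Rpl22l1 encode paralogous proteins on the surface of the large subunit. Rpl22l1 stood at 32.8, 30.8 and 30.4 CPM in knockout and at 28.4, 27.3 and 27.1 CPM in WT. Every knockout library lay above every WT library, with a log2 fold change of 0.18 (SE 0.05; edgeR adjusted p = 0.742). Rpl22 itself stood at 194 to 201 CPM in knockout and 186 to 193 CPM in WT, also without overlap. Relative to Rpl22, Rpl22l1 counts were 16.8%, 15.9% and 15.2% in knockout and 15.3%, 14.1% and 14.3% in WT. The ratios overlap (16.0% ± 0.849 against 14.6% ± 0.600, SD, n = 3; two-sided exact permutation test, p = 0.2, adjusted over 6 ratios 0.84).

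The remaining paralogues differed less or were scarce. Rpl7l1 stood at 92.1 to 94.0 CPM in knockout and 92.0 to 96.4 CPM in WT, and its ratio to Rpl7 was 14.6% and 15.1% (exact permutation test, p = 0.5). Rps4l, annotated as a transcribed processed pseudogene, had 0.816% and 0.865% of the counts of Rps4x (exact permutation test, p = 0.6). Rpl36al had 0.443% and 0.383% of those of Rpl36a (exact permutation test, p = 0.7). Rpl10l had 0 counts in all libraries, and Rpl3l and Rpl39l had at most 0.247 and 0.596 CPM. Rpl10l, Rpl3l and Rpl39l are paralogues known from testis or muscle. Coding identity to the partner was 84.7% for Rpl10l, 85.0% for Rpl39l, 87.7% for Rpl36al, 73.2% for Rpl3l, 66.9% for Rpl22l1 and 53% for Rpl7l1.

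**Figure D5:**
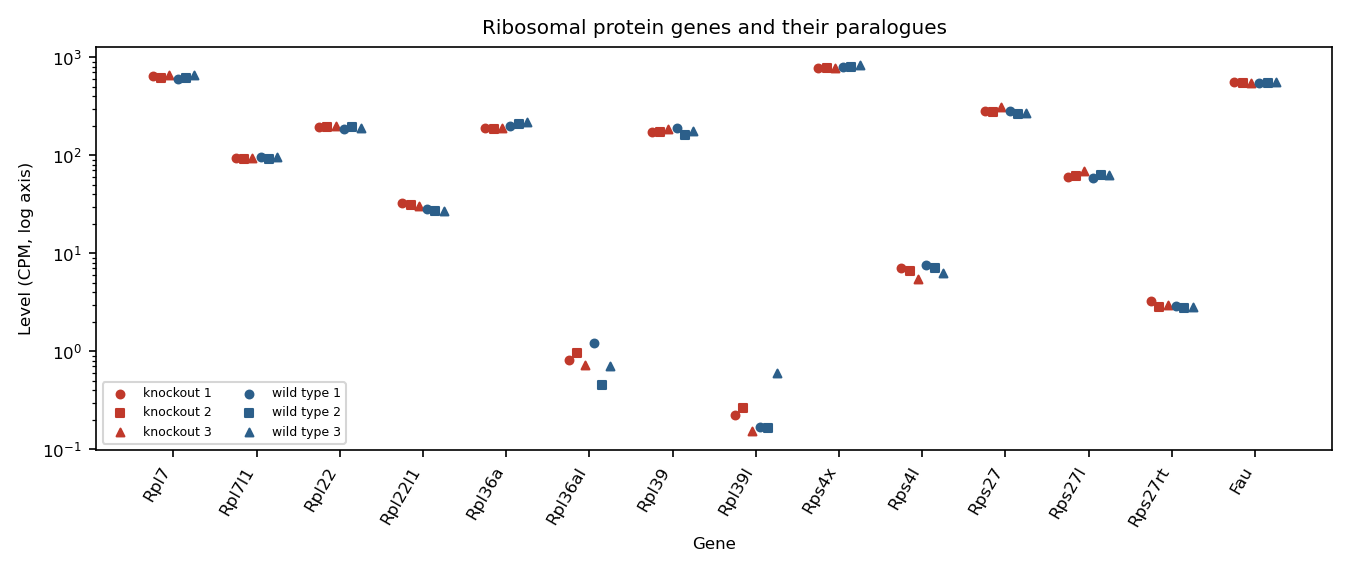
Level (CPM, log axis) of ribosomal protein genes beside their paralogues, and of Fau, in each library; red points are knockout libraries and blue points WT libraries. Each paralogue lies below its partner, and Rpl22l1 is the paralogue whose knockout libraries all lie above its WT libraries; libraries with 0 counts cannot be drawn on a log axis.

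Pseudogenes named after members took few of the counts. Of 291 annotated pseudogenes with the symbol of a member followed by -ps, 158 had counts. They summed to 0.433% to 0.493% of the counts of the 77 genes in a library. Copies with other names, such as Gm12918 of Rpl13, or annotated as protein-coding, such as Rpl10-ps3 of Rpl10, are not in this sum. The sequences themselves were widely shared: at the median, 36.9% of the windows of 100 bases of a member occurred in transcripts of other genes, and 29 members exceeded 50%. Rpl22, Rpl32, Rps3 and Rps21 were among the 5 members that shared none at this length. Among the 74 genes above 100 CPM, the shared fraction had a Spearman rho of 0.23 with level per length and of 0.04 with the log2 fold change, as a description of these genes.

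Genes that build, feed or sense the ribosome likewise held no called gene in edgeR's test, and DESeq2 and limma-voom called none in these lists either. Of 41 initiation factors, 15 had log2 fold changes above 0 and 26 below, with a median of -0.01. The only ones at an unadjusted p under 0.05 were Eif2b1 (0.14, SE 0.06) and Eif2b2 (0.13, SE 0.05), where 5.44% of all genes tested passed. Both encode subunits of the exchange factor that recharges the initiation factor eIF2. DESeq2 had none of the 41 at that level (3.14% of all genes tested) and limma-voom 1 (5.37%). Of 16 elongation and termination factors, 4 lay above 0, and none reached an unadjusted p under 0.05 by any of these tests. Hbs1l, which rescues stalled ribosomes, and Eef1e1, a scaffold of the tRNA synthetase complex, had the smallest p-values, at 0.15 and 0.24 (SE 0.06 and 0.12).

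Other TOP transcripts and the factors that assemble ribosomes gave similar counts. Of 19 other known TOP transcripts, 6 lay above 0, and Pabpc1, the poly(A)-binding protein, and Npm1, nucleophosmin, had estimates of -0.09 and -0.07 (SE 0.06 and 0.05). The TOP list is not separate from the others. For example, Pabpc1 is also counted among the initiation factors, Eef2 among the elongation factors and Npm1 among the biogenesis factors. Of 77 ribosome biogenesis factors, 33 lay above 0. An unadjusted edgeR p under 0.05 was reached by 1 higher and 2 lower, where 5.44% of all genes tested passed. DESeq2 had 0 higher and 1 lower at that level (3.14% of all genes tested), and limma-voom 1 and 2 (5.37%). Utp18, of the small subunit processome, had -0.20 (SE 0.06; edgeR adjusted p = 0.767), and Heatr3, which imports Rpl5 to the nucleus, had -0.15 (SE 0.05; edgeR adjusted p = 0.881). Neither of them passed the adjusted threshold.

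Lists upstream of ribosome production and downstream of its failure were counted the same way. Of 22 genes for RNA polymerase I transcription, 12 lay above 0, and the promoter factor subunits Taf1b and Taf1a had 0.28 and 0.31 (SE 0.10 and 0.15; edgeR adjusted p = 0.881 and 0.932). Of 25 genes of mTORC1 and the control of TOP translation, 14 lay above 0, with the mTORC1 substrates Akt1s1 at 0.12 (SE 0.06) and Eif4ebp1 at 0.08 (SE 0.05). Neither of these had an unadjusted p under 0.05. Of 15 genes of ribosome surveillance and the p53 axis, 7 lay above 0, with Zmat3, a p53 target, at 0.13 and Rnf25, a ubiquitin ligase of stalled ribosomes, at -0.12 (SE 0.09 and 0.07). Of 12 host genes of small nucleolar RNAs tested, 6 lay above 0, and Snhg17 and Snhg5 had 0.36 and 0.25 (SE 0.14 and 0.13; edgeR adjusted p = 0.908 and 0.947).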

How the data were processed

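The authors deposited unnormalized read counts, 1 row for each Ensembl gene. The submitters' processing notes name HISAT2, featureCounts and GRCm38. For tool versions, annotation release, strand setting and the treatment of reads that map to several genes, the sources used here give nothing. Those settings bear on overlapping and near-identical genes. The labels' protocols name a SMARTer mRNA library kit. Total counts ran from 24179548 to 31542741.

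Counts of all genes were scaled by TMM, filtered with filterByExpr (13588 genes left) and tested with the quasi-likelihood method of edgeR, two-sided (edgeR 4.0.16, R 4.3.3), with genotype as the only term and Benjamini-Hochberg adjustment over all genes tested, called at 0.05. Standard errors come from the F statistic. The script was tested on simulated data. Single values per library were compared with two-sided exact permutation tests, which with 3 libraries a group cannot go below 0.1.

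Levels per length use the shortest well-supported GENCODE M21 transcript that codes for as much as the principal one. Shared sequence was counted in windows of 100 bases, with 50 as an alternative, where the median rose to 52.3%. Start sites are those of RefSeq on GRCm38.p6. Alternatives were 3 other scalings (upper quartile, DESeq2 size factors, plain totals), limma-voom (limma 3.58.1), DESeq2's Wald test (version 1.42.0), no filter, a mean of at least 10 CPM, a replicate block, and each library left out once.

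Members and lists were chosen with earlier results of these data known. Named were the 8 highest and 6 lowest members per length, the 5 smallest p-values in each direction, the 4 largest and 4 smallest CVs, Rpsa, Rplp0, Rplp1, Rplp2, Rps6, all paralogues, Fau, and the 2 smallest p-values of each other list.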

Additional observations from a re-analysis of the deposited data

How the results depend on the processing

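No ribosomal protein gene was called under any alternative, and the lowest edgeR, DESeq2 or limma-voom adjusted p of a member was 0.471. Calls among all genes, 14 in the reported fit, came to 40 with the DESeq2 Wald test, 151 without a filter and 5 at a mean of at least 10 CPM, and ran from 4 to 12 when 1 library was left out; the cause was not tested. The replicate number did not pair the libraries, because same-numbered libraries had correlations of 0.06, -0.12 and 0.04 in their deviations. With the replicate block, 17 of all genes and 0 members were called, the median member log2 fold change was 0.01, and the sign-flip p of the share and of the subunit ratio was 0.25, the smallest possible.

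The members' median log2 fold change ran from -0.01 to 0.04 over the fits without 1 library. The difference in share ran from 0.0806 to 0.197 percentage points. Paralogue ratios whose sign changed ran from -0.0236 to 0.171 for Rpl36al, -0.102 to 0.00874 for Rps4l and -0.0583 to 0.0482 for Rps27rt (percentage points). Of 54 named genes tested, 35 kept their sign in every alternative, and the 19 others were never called.

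Sign changes by setting were, as log2 fold changes, with upper-quartile scaling Fau -0.0041, Rpl13a -0.00081 and Rps12 -0.0064; with library totals Rpl35 0.032, Rpl7a 0.042, Rpl7l1 0.026, Rplp0 0.038, Rps2 0.036, Rps20 0.025 and Rps6 0.011; without a filter Rpl7a 0.0074, Rplp0 0.0031 and Rps2 0.0022; with limma-voom Rpl13a -0.0023; and for Rps12 -0.00090 with DESeq2 size factors, -0.00094 with DESeq2 and -0.0015 at 10 CPM. Leaving out 1 library gave ranges of -0.0096 to 0.019 for Fau, -0.040 to 0.064 for Rpl10, -0.055 to 0.097 for Rpl13a, -0.077 to 0.043 for Rpl35, -0.19 to 0.52 for Rpl36al, -0.0091 to 0.068 for Rpl41, -0.027 to 0.047 for Rpl7a, -0.035 to 0.044 for Rplp0, -0.037 to 0.039 for Rps12, -0.018 to 0.049 for Rps14, -0.022 to 0.0077 for Rps2, -0.058 to 0.012 for Rps20, -0.15 to 0.038 for Rps21, -0.016 to 0.084 for Rps27l, -0.023 to 0.24 for Rps29, -0.064 to 0.029 for Rps6, -0.0033 to 0.044 for Rps9 and -0.016 to 0.074 for Rpsa. At 8 to 16 counts, the 95% interval of Rpl24 ran from -1.59 to 0.11.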
